A study of Mus musculus with 12 samples.

Results

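The genes of oxidative phosphorylation were followed in the RNA of mouse dermal papilla cells isolated by FACS, in 12 sequencing libraries. The dermal papilla is a cluster of mesenchymal cells that sits under the hair follicle and instructs its growth. Members were all genes whose symbol marks a subunit of the respiratory chain or of ATP synthase by its name (mt-Nd, mt-Co, mt-Atp and mt-Cytb on the mitochondrial genome, and numbered Nduf, Sdh, Uqcr, Cox4 to Cox8 and Atp5 genes in the nucleus), with pseudogenes left out. This gave 97 of the 25887 genes in the tables, 13 encoded by the mitochondrial genome and 84 by the nuclear genome. The nuclear members comprised 37 genes named for complex I, 4 for complex II, 8 for complex III, 18 for complex IV and 17 for complex V. The mitochondrially encoded members comprised 7 of complex I, 1 of complex III, 3 of complex IV and 2 of complex V. The naming rule leaves out Ndufab1 and Cyc1, which also encode subunits, and takes in genes that are not structural subunits of the complex they are named for, such as Ndufa4, a subunit of complex IV in current use, its relative Ndufa4l2, and Cox7a2l, a factor that joins complexes.

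The 4 groups held 3 libraries each. At postnatal day 20 (P20) the mice were female and the skin was labelled telogen, the resting phase of the hair cycle, in wild type (WT) and in Smo* mutants alike. At P28 the mice were male, and the stage was labelled Anagen VI in WT but anagen (I-III) in Smo* mutants. Smo* is a gain-of-function form of Smo, the membrane protein that passes on the Hedgehog signal, made in the dermal papilla according to the series title, and the sources used here do not give the driver of the allele. Age, sex and stage therefore differ together between P20 and P28, and genotype and stage differ together at P28, and these cannot be told apart. No label ties a library to an animal of its own, so a p-value here speaks only for the spread among these libraries, part of which may be technical.

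As background, oxidative phosphorylation passes electrons from NADH and succinate through complexes I to IV to oxygen and uses the resulting proton gradient to drive ATP synthase, complex V. Complex II is built from nuclear genes only, whereas the other complexes mix subunits made in the mitochondrion, mostly the hydrophobic catalytic core, with imported subunits made from nuclear genes. The mitochondrial genome is read as long transcripts from both strands that are cut into the individual RNAs, so the amounts of mitochondrial RNAs depend on processing and stability as well as on synthesis. Dermal papilla cells enter a phase of high secretory activity in anagen.

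The libraries held 36323058 to 48926831 reads on genes. The Hedgehog targets Ptch1 and Gli1 were higher in all Smo* than in all WT libraries of the same age, with Ptch1 between 2408 and 5470 normalized reads at P20 in WT but between 19150 and 42346 in Smo*. Replicate 3 of P28 Smo* stood apart, with reads on 15453 genes against 17337 to 17926 in the other 11 libraries. All 15 dermal papilla markers on a list were detected, and Corin, a marker of the anagen papilla, stood at 69681 to 79819 in P28 WT, 751 to 7856 in P28 Smo* and 416 to 1044 at P20. Of the members, 93 had a mean of at least 10 normalized reads and were tested. Cox6a2, Cox7b2, Cox8b and Cox8c were below that level.

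Mitochondrial genes lie so close together that some share bases, which bears on what the counts can separate. The RNA of mt-Atp8 is the shortest with an overlap, and its last 43 bases, 21.1% of its 204, are also the first bases of mt-Atp6. The short mt-Nd4l shares its last 7 bases with mt-Nd4. Both are shown whole, as they stand in the GENCODE transcripts of GRCm38, with the shared bases in capitals (mt-Atp8 on chrM:7766-7969 and mt-Nd4l on chrM:9877-10173, both on the plus strand).
mt-Atp8: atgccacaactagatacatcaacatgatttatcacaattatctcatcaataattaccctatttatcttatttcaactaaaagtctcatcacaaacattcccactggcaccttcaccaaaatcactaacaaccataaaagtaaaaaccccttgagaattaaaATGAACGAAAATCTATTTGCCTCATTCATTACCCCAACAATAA
mt-Nd4l: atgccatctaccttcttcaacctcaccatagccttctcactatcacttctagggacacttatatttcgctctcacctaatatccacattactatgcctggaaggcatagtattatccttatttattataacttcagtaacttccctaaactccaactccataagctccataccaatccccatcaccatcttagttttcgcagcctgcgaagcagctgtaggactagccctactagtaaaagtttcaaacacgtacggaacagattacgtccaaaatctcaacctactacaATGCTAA
The gene mt-Nd6, the only mitochondrially encoded member on the minus strand, overlaps mt-Nd5 by 14 bases. The sources used here do not say how reads on shared bases were counted, so the value of mt-Atp8, which shares the largest part of its length, is uncertain. In addition, 9 of the 13 mitochondrially encoded members share a stretch of 50 bases or more with an annotated nuclear pseudogene, and mt-Cytb, mt-Nd1, mt-Nd6 and mt-Atp8 do not. The same holds for 32 nuclear members, among them Atp5g2, Cox7a2l, Ndufa7 and Uqcrh, whose values are uncertain to that extent.

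Most mitochondrially encoded members were far more abundant than the nuclear ones per length of gene, but mt-Nd4l, mt-Atp8 and mt-Nd6 lay within the nuclear range. On the scale of normalized reads per kb of exon, averaged over all 12 libraries, mt-Co3, a core subunit of cytochrome c oxidase (complex IV), was highest at 65797, followed by mt-Atp6 at 52642, the ATP synthase subunit that conducts protons, and by mt-Co1 at 51080 and mt-Co2 at 45269. Complex III's mt-Cytb stood at 18178. The complex I genes ranged from 13340 for mt-Nd1 down to 753 for mt-Nd6, and mt-Atp8, a small ATP synthase subunit, was at 1590. Among nuclear members the highest level per kb was that of Atp5a1, the alpha subunit of ATP synthase, at 3828, then Cox4i1, the common form of cytochrome oxidase subunit 4, at 3444, and Ndufa4l2 at 2959. The highest members of the other complexes were Uqcr10 at 1293 (complex III) and Sdhd at 1125 (complex II), the membrane anchor of succinate dehydrogenase. The lowest tested members of their complexes were Atp5s at 31.7, Cox7a1 at 73.6, Ndufb2 at 78.7, Uqcrq at 449.8 and Sdhc at 492. Lengths are the union of annotated exons, so genes with long rare exons appear low on this scale.

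Among the libraries, the mitochondrial set split one group. The 13 mitochondrially encoded members took 0.456%, 0.541% and 0.449% of reads on genes in the P20 WT libraries, a mean of 0.482% ± 0.051 (SD, n = 3). In P20 Smo* the shares were 0.478%, 0.698% and 0.528%, a mean of 0.568% ± 0.115 (SD, n = 3). The P28 WT libraries gave 0.606%, 1.13% and 1.14%, a mean of 0.958% ± 0.305 (SD, n = 3), and P28 Smo* gave 0.427%, 0.506% and 0.485%, a mean of 0.472% ± 0.041 (SD, n = 3). Replicates 2 and 3 of P28 WT were thus well above everything else, whereas replicate 1 of that group lay within the range of the P20 Smo* libraries. The 84 nuclear members together took a smaller and more even share, 0.241% ± 0.025 in P20 WT, 0.276% ± 0.040 in P20 Smo*, 0.307% ± 0.057 in P28 WT and 0.264% ± 0.031 in P28 Smo* (SD, n = 3 each), and the 4 groups overlapped.

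The ratio of summed mitochondrial to summed nuclear members stayed between 1.69 and 2.17 in the 9 libraries outside P28 WT. In P28 WT it was 2.06, 4.38 and 3.08. Every one of the 13 mitochondrially encoded members was higher in replicates 2 and 3 of P28 WT than in all of the other 10 libraries, and all 13 peaked in replicate 2. These values come from sums over chosen genes and were not tested. The replicate numbers only name the libraries. The collagen genes Col1a1, Col1a2 and Col3a1 together held 25.4% to 43.6% of the reads of a library, so a share of all reads also moves with them.

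**Figure D1:**
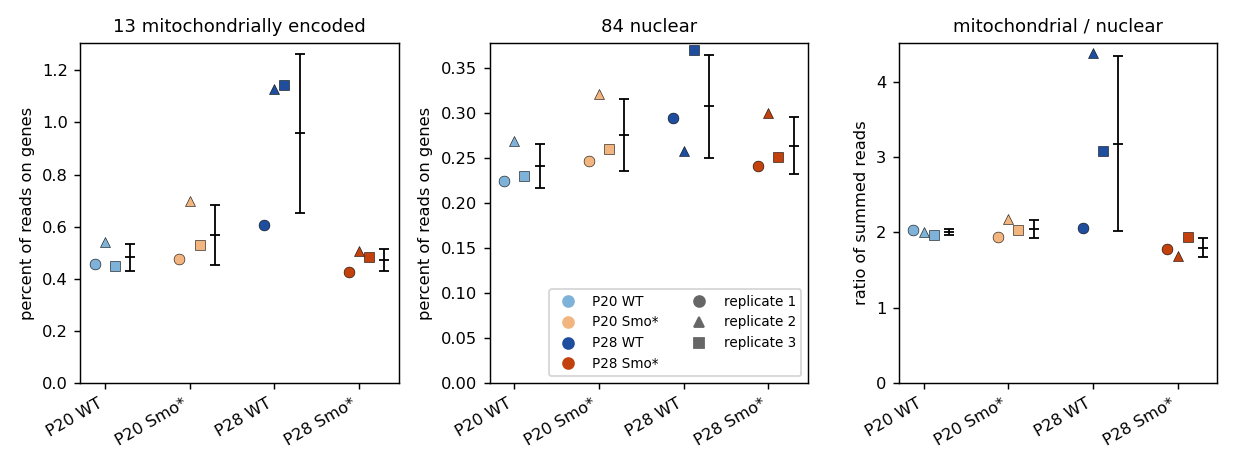
Share of reads on genes taken by the 13 mitochondrially encoded members (left) and the 84 nuclear members (middle), in percent, and the ratio of their summed reads (right), per library and group; symbols mark the replicate, and the bar beside each group is the mean with its SD (n = 3). Replicates 2 and 3 of P28 WT stand at 1.13% and 1.14% on the left and at ratios of 4.38 and 3.08 on the right.

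At P20, no member was called different between Smo* and WT. Called here means a Benjamini-Hochberg adjusted p under 0.05 over all genes tested, from limma on log2(normalized value + 1), and fold changes are on that scale. The count was 0 of 80 nuclear and 0 of 13 mitochondrially encoded members, where 0.696% of all genes tested were called either way. A single member, Ndufa4l2, had an unadjusted p under 0.05, and the count of called members was also 0 by edgeR, by DESeq2 and in the authors' deposited table. The median log2 fold change (Smo* over WT) was -0.04 for nuclear and 0.03 for mitochondrially encoded members, against 0.00 for all genes tested. By complex, the nuclear medians ran from -0.06 in complex V to -0.03 in complex II.

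The member nearest to a call at P20 was Ndufa4l2, a relative of Ndufa4 known to be induced by low oxygen. Its normalized reads were 3383, 4081 and 3160 in WT and 2715, 2707 and 2573 in Smo*. The groups did not overlap, with a log2 fold change of -0.40 (SE 0.12, adjusted p = 0.242 by limma). The largest positive values were those of Cox4i1 at 0.19 (SE 0.13), Cox5b at 0.19 (SE 0.18) and Ndufa5 at 0.17 (SE 0.26), and the largest negative ones Cox6b2 at -0.43 (SE 0.24), Ndufa4l2 and Cox7a1 at -0.34 (SE 0.32). Apart from Ndufa4l2, each of these had overlapping groups, and their adjusted p lay between 0.564 and 0.872.

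At P28 just 1 mitochondrially encoded member was called, and it was lower in Smo* than in WT. All 13 had a negative log2 fold change, from -0.54 for mt-Atp8 to -1.12 for mt-Nd2, with a median of -0.79, against a median of -0.09 for the 80 nuclear members tested and -0.01 for all genes. The called member was mt-Cytb, the cytochrome b of complex III (chrM:14145-15288). It had 20782, 40756 and 36052 normalized reads in P28 WT and 15912, 16285 and 15708 in P28 Smo*. Every Smo* value was below every WT value. The log2 fold change was -0.97 (SE 0.24, adjusted p = 0.0468 by limma), where 4.85% of all genes tested were called lower. With replicate 1 of WT left out 7 of the 13 were called, and with replicate 2 or replicate 3 of WT, or replicate 2 or 3 of Smo*, left out there were 0. Leaving out replicate 1 of Smo* left 1 call, mt-Nd3 in place of mt-Cytb.

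The other mitochondrially encoded members missed the threshold by differing margins. Their groups did not overlap for 6 of the 13, mt-Cytb included, where 17.8% of all genes tested had Smo* wholly below WT. Of complex I, mt-Nd4 had 11918, 29238 and 22823 in WT and 8614, 9731 and 9394 in Smo*, a log2 fold change of -1.11 (SE 0.30, adjusted p = 0.0562 by limma). The small complex I gene mt-Nd3 had 3002, 3859 and 3766 in WT against 2736, 2094 and 1651, a change of -0.73 (SE 0.19, adjusted p = 0.0552 by limma). In both, the lowest WT library was replicate 1, and it lay above the highest Smo* library.

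Of complex IV, mt-Co1, the catalytic subunit, had 81722, 142771 and 112645 in WT and 71776, 62934 and 71676 in Smo*, with a change of -0.67 (SE 0.25). The second core subunit, mt-Co2, had 30296, 60759 and 51642 against 23983, 24052 and 28282, a change of -0.85 (SE 0.26). For mt-Co3 the values were 54522, 84423 and 81279 against 45362, 46156 and 49898, a change of -0.61 (SE 0.22). None of the 3 overlapped between the groups, and their adjusted p from limma was 0.141, 0.0871 and 0.125.

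The remaining 7 overlapped. The ATP synthase gene mt-Atp6 had 30452, 70735 and 64465 in WT against 23591, 32483 and 32154 in Smo*, where replicate 1 of WT lay inside the Smo* range. Its change was -0.83 (SE 0.32, adjusted p = 0.151 by limma). The complex I genes mt-Nd1 and mt-Nd5 changed by -0.86 (SE 0.29) and -0.79 (SE 0.30), with adjusted p of 0.1095 and 0.1395 by limma. The widest errors were those of mt-Nd2 (-1.12, SE 0.53), mt-Nd4l (-0.76, SE 0.65), mt-Nd6 (-0.72, SE 0.57) and mt-Atp8 (-0.54, SE 1.13).

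Other tests placed more of these genes past the threshold. At P28, the authors' deposited table gave 9 of the 13 with an adjusted p under 0.05, namely mt-Nd1, mt-Nd3, mt-Nd4, mt-Nd5, mt-Cytb, mt-Co1, mt-Co2, mt-Co3 and mt-Atp6, all lower in Smo*. With DESeq2 on the recovered reads 9 were called, in a limma fit of all 12 libraries 6, with edgeR 2 and with robust empirical Bayes 2. With no filter, no variance trend or the length trend removed the count was 0.

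**Figure D2:**
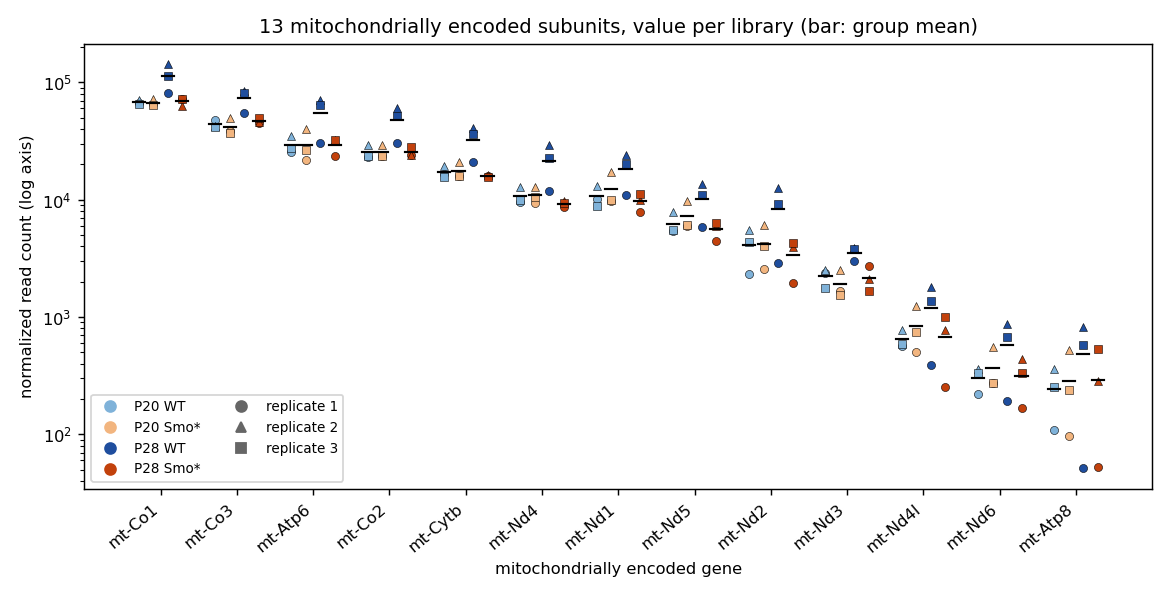
Normalized read count (log axis) of each mitochondrially encoded member in every library, ordered by mean; colours mark the 4 groups, symbols the replicate and black bars the group means. Replicates 2 and 3 of P28 WT (dark blue triangles and squares) are the highest of the 12 libraries for all 13 genes, and replicate 1 of each group (circles) is low for mt-Atp8, at 51.2 to 110 reads.

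The relative amounts of the mitochondrial RNAs also differed between libraries within groups. For each 1000 normalized reads on mt-Atp6 there were 4.27, 4.5, 1.68 and 2.24 reads on mt-Atp8 in replicate 1 of P20 WT, P20 Smo*, P28 WT and P28 Smo*, against 8.70 to 16.5 in the other 8 libraries. For mt-Nd2, a complex I gene, the same 4 libraries had 27.1 to 39.6 reads for each 1000 on mt-Co1, and the other 8 had 59.6 to 88.8. Each group holds 1 of these 4 libraries, and the spread they add is part of the SE of both genes. For mt-Nd3 the ratio to mt-Co3 ran the other way in part, from 33.1 in replicate 3 of P28 Smo* to 60.3 in replicate 1 of that group. What sets these ratios was not tested.

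Taken as a sum, markers of the papilla were also at their highest in P28 WT. The summed level of the 15 dermal papilla markers was 52272 to 65863 normalized reads in P20 WT, 67920 to 78810 in P20 Smo*, 355865 to 451871 in P28 WT and 45370 to 272751 in P28 Smo*. Replicates 1 and 2 of P28 Smo* had 178306 and 272751, above all P20 libraries, while their mitochondrial shares of 0.427% and 0.506% were not. Replicates 1, 2 and 3 of P28 WT had 355865, 412400 and 451871, with mitochondrial shares of 0.606%, 1.13% and 1.14%. Both were thus lowest in replicate 1 of that group. The marker sum was highest in replicate 3, whereas the normalized reads of all 13 mitochondrially encoded members peaked in replicate 2. With the 10 most abundant genes outside the set left out of the denominator, the mitochondrial shares were 0.982%, 1.92% and 1.71%. The order of replicates 2 and 3 thus depended on the scale. Single papilla markers did not all follow their sum. Vcan, a large part of it, had 104114 to 141809 in P28 WT and 22655 to 142994 in P28 Smo*. Sox2 had 249 to 448 and 285 to 1453. Of the 15, 6 were called lower in Smo* at P28 by limma and 0 higher, where 4.85% and 4.05% of all genes tested were. The 12 keratinocyte markers summed to 765 to 1786, 625 to 855, 1549 to 1920 and 452 to 1047 in the same order of groups, with Krt14 at 0 to 220 in any library. Within P28 WT that sum was 1658, 1549 and 1920. Much of its change between groups was that of Msx2, with means of 110, 154, 624 and 282 in the same order. Between P20 and P28 in WT, 2 of the 12 were called higher by limma, Msx2 and Krt17, where 13.5% of all genes tested were. Krt17 had means of 2.60, 3.28, 45.5 and 7.89 in the same order (log2 fold change 3.98, SE 1.22, adjusted p = 0.0315 by limma). Krt5 overlapped, at 14.7, 71.8 and 388 in P20 WT and 332, 172 and 30.4 in P28 WT. In bulk RNA, fewer cells of a type and less RNA per cell cannot be told apart. The part of the papilla and keratinocyte markers in the difference was not tested.

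The nuclear members at P28 showed no call in either direction, 0 of 80 by limma, where 8.9% of all genes tested were called either way, with 3 at an unadjusted p under 0.05. DESeq2 called 2, edgeR 0 and the authors' deposited table called 1. That one was Cox8a, a small subunit of cytochrome oxidase on chr19:7215153-7217616, with 2261, 1994 and 2472 normalized reads in WT and 1634, 1749 and 1432 in Smo*. Its groups did not overlap, and the log2 fold change was -0.48 (SE 0.13, adjusted p = 0.0606 by limma). In the authors' deposited table the value for Cox8a was -0.47 with an adjusted p of 0.00542. Next came Atp5g2, 1 of the 3 genes for the c subunit of ATP synthase, at -0.35 (SE 0.10, adjusted p = 0.0809 by limma), also without overlap. Uqcr10, a small subunit of complex III, stood at -0.43 (SE 0.18, adjusted p = 0.186 by limma) with overlapping groups. The largest positive values were Cox6c at 0.46 (SE 0.21), Ndufa4l2 at 0.35 (SE 0.19) and Atp5mpl at 0.27 (SE 0.17), and the largest negative one was Atp5s at -0.54 (SE 0.50). Medians by complex were -0.03 for complex I, -0.05 for complex II, -0.19 for complex III, -0.09 for complex IV and -0.09 for complex V.

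**Figure D3:**
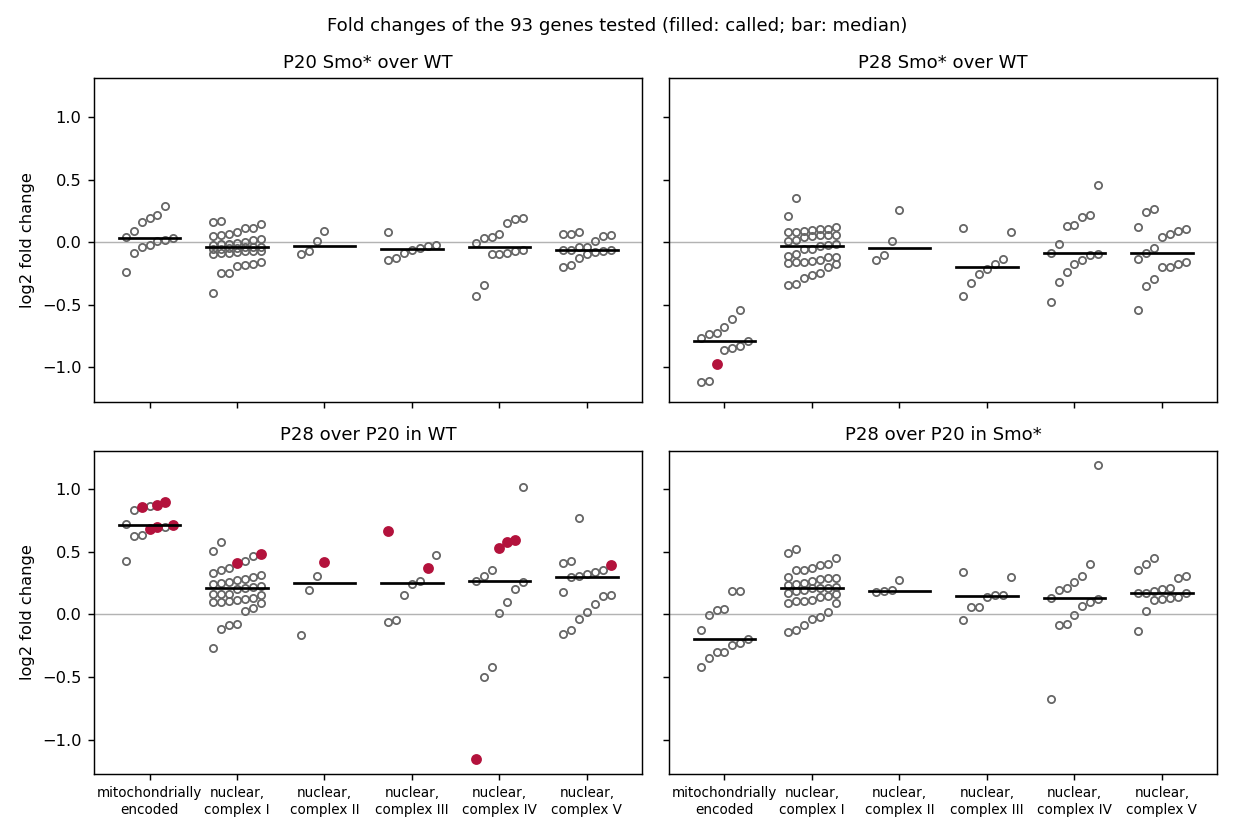
Log2 fold change of each of the 93 members tested in 4 comparisons (Smo* over WT at P20 and at P28, and P28 over P20 in WT and in Smo*), for the mitochondrially encoded members and for the nuclear members of each complex; filled points were called by limma, open points were not, and black bars are medians. All 13 mitochondrially encoded members lie below 0 at P28 (median -0.79) and above 0 in the WT age comparison (median 0.71), which uses the same P28 WT libraries.

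Between P20 and P28 in WT, 6 of the 13 mitochondrially encoded members rose, where 13.5% of all genes tested were called higher. This comparison uses the same 3 P28 WT libraries as the genotype comparison at P28, so the values are given side by side and are no separate evidence. The 6 were mt-Cytb (log2 fold change P28 over P20 of 0.88, SE 0.21, adjusted p = 0.0108 by limma), mt-Co2 (0.86, SE 0.22), mt-Co3 (0.71, SE 0.18), mt-Co1 (0.70, SE 0.19), mt-Nd4 (0.90, SE 0.26) and mt-Nd3 (0.68, SE 0.22). For mt-Cytb and mt-Co1 the P20 WT libraries overlapped those of P28 Smo*. For mt-Cytb they were 16394, 19416 and 15533, and for mt-Co1 66796, 71061 and 65190. In 5 of the 13 all P28 WT libraries lay above all P20 WT libraries, where 23.6% of all genes did so. For mt-Nd4 they did not, since replicate 1 at P28 (11918) lay below replicate 2 at P20 (12777). All 13 values were positive, with a median of 0.71. Without replicate 2 or replicate 3 of P28 WT just 1 was called, without replicate 1 of P28 WT 11, without replicate 1 of P20 WT 3 and without replicate 3 of P20 WT 2.

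Of the 80 nuclear members tested, 9 rose between P20 and P28 in WT and 1 fell. Among all genes tested 13.5% were called higher and 11.9% lower, so the count that rose was near the background. Their median log2 fold change was 0.23, against -0.01 for all genes, and 67 of 80 were positive. In 22 of the 80 all P28 WT libraries lay above all P20 WT libraries, near the 23.6% of all genes. By complex the medians were 0.21 in complex I, 0.25 in II, 0.25 in III, 0.26 in IV and 0.30 in V.

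The 9 that rose came from every complex. In complex IV, Cox8a had 1468, 1666 and 1332 normalized reads at P20 and 2261, 1994 and 2472 at P28, a log2 fold change of 0.59 (SE 0.12, adjusted p = 0.00387 by limma). In complex II, Sdha, the flavoprotein that oxidises succinate (chr13:74322254-74350280), had 2814, 2889 and 2705 at P20 and 3896, 3830 and 3485 at P28, a change of 0.41 (SE 0.09, adjusted p = 0.0072 by limma). In both the ages did not overlap, and they were called without each of the 12 libraries in turn. In complex III, Uqcr10 rose from 545, 732 and 641 to 991, 810 and 1263 (0.66, SE 0.17, adjusted p = 0.0141 by limma), and Uqcrh, the hinge protein, rose from 1491, 1519 and 1349 to 1796, 1824 and 2000 (0.37, SE 0.12, adjusted p = 0.0448 by limma). In complex I, the accessory subunit Ndufa7 rose from 535, 646 and 606 to 842, 689 and 989 (0.48, SE 0.16, adjusted p = 0.0482 by limma). Of the 12 fits that left out a library, Uqcrh was called in 3 and Ndufa7 in 2.

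Also higher at P28 were Cox6b1, an outer subunit of cytochrome oxidase (0.53, SE 0.16), Cox7a2l (0.58, SE 0.18) and Atp5g2 (0.39, SE 0.12), with adjusted p from limma of 0.0282, 0.0356 and 0.02898, called in 8, 6 and 9 of those 12 fits. All 9 had P28 WT wholly above P20 WT. The single one that fell was Cox7a1, the form of subunit 7a typical of heart and skeletal muscle, at a low level. It had 70.1, 47.9 and 54.0 normalized reads at P20 and 23.0, 24.9 and 26.7 at P28 (-1.16, SE 0.40, adjusted p = 0.0495 by limma), and it was called in 2 of the 12 fits that left out a library. With 1 library left out, the count of nuclear members called ran from 2 (without replicate 3 of P28 WT) to 14 (without replicate 3 of P28 Smo*). It was 3 without replicate 1 of P20 WT, 4 without replicate 3 of P20 WT and 5 without replicate 1 of P28 WT. Of those not called, Cox4i2 had the highest value (1.02, SE 0.49), then Atp5s (0.77, SE 0.44), and Cox6c (-0.50, SE 0.21) and Cox6b2 (-0.42, SE 0.33) the lowest after Cox7a1.

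Library by library, the median of the nuclear members lay close to that of short genes outside the set. Longer genes were not set beside them in this way, and what sets the shifts was not tested. Of the 80 tested, 19 have an exon length of at most 1000 bases, with a median of 1578 bases over all 80. Relative to each gene's mean over 12 libraries, the per-library median of the nuclear members ran from -0.22 in replicate 1 of P20 Smo* to 0.31 in replicate 3 of P28 WT. The median of 181 protein-coding genes outside the set with exons of at most 1000 bases and a mean of at least 50 reads ran from -0.20 to 0.25 in the same 2 libraries. Genes of other mitochondrial proteins were not taken out of these 181. Both medians had the same sign in 11 of the 12 libraries and differed by at most 0.082 on the log2 scale. With a trend of log2 values with exon length removed from each library, the nuclear median in WT fell from 0.23 to 0.14, and that of the mitochondrially encoded members from 0.71 to 0.57.

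**Figure D4:**
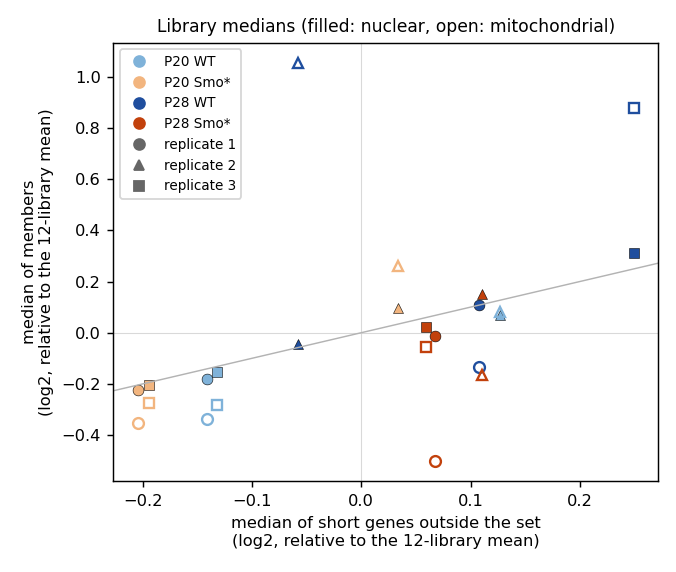
Per library, the median log2 level relative to the mean of 12 libraries of 181 short genes outside the set (horizontal) against that of the 80 nuclear members tested (filled) and the 13 mitochondrially encoded members (open); the line marks equal values, colours the groups and symbols the replicates. The filled points lie within 0.082 of the line, and the open points of replicates 2 and 3 of P28 WT lie far above it, at 1.05 and 0.88.

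The starts of genes that rose in WT were searched for motifs of factors known to act on such genes. RefSeq windows of 300 bases, from 250 before to 50 after a start (GRCm38.p6), were matched by symbol for 66 of the 84 nuclear members, in 71 windows. The NRF1 motif CGCATGCG stood in 9 of the 71 windows (12.7%), against 1.87% of all 32851 windows. The ETS motif CCGGAAG, which GABP binds, stood in 16 (22.5%) against 8.86%. The YY1 motif AAGATGGCG stood in 7 (9.86%) against 1.40%, and the ERR motif TCAAGGTCA in 2 (2.82%) against 0.423%. Both strands were read, and the end of the ETS motif (AAG) is the start of the YY1 motif, so these can overlap. Of the 9 nuclear members that rose in WT, 8 had a window, and 3 of those held the ETS motif and 1 the NRF1 motif. These 4 are shown from 100 bases before to 10 after the start, read along the gene, with the motif in capitals. The ETS motif lies on the opposite strand in all 3. The genes are Cox8a (chr19:7217607-7217716), Cox6b1 (chr7:30626105-30626214), Uqcrh (chr4:116075061-116075170) and Atp5g2 (chr15:102671038-102671147), all on the minus strand. The Atp5g2 window lies inside the gene as GENCODE places it (chr15:102662864-102672352), at a start downstream of the GENCODE one. For the others the GENCODE start falls within the bases shown.
Cox8a: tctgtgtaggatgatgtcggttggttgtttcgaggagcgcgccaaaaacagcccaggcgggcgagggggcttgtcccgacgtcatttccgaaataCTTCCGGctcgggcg
Cox6b1: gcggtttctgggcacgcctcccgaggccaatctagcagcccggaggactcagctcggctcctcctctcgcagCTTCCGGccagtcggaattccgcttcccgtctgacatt
Uqcrh: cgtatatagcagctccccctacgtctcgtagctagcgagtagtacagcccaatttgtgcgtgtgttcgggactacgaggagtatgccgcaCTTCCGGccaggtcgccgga
Atp5g2: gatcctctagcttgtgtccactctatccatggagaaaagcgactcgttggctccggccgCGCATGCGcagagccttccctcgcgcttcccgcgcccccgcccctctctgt
A match is a description of the letters only. Binding was not measured in these data.

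Between P20 and P28 in Smo*, no member was called by limma, where 3.46% of all genes tested were called either way. The counts were 0 of 80 nuclear members, with 12 at an unadjusted p under 0.05, and 0 of 13 mitochondrially encoded members, with 0 at that level. DESeq2 called 3 nuclear members and edgeR 0. The nuclear median was 0.18, against 0.23 in WT, and 69 of 80 values were positive. The mitochondrially encoded members had a median of -0.20, with 4 values above and 9 below 0. In 12 of the 80 nuclear members P28 Smo* lay wholly above P20 Smo*, where 12.2% of all genes did so.

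The nearest to a call was Ndufs4, an accessory subunit of complex I, with 622, 672 and 585 normalized reads at P20 and 821, 959 and 918 at P28. The ages did not overlap, and the log2 fold change was 0.52 (SE 0.14, adjusted p = 0.0596 by limma). Ndufa4l2 had 2715, 2707 and 2573 against 3807, 2972 and 4627, again without overlap (0.49, SE 0.16, adjusted p = 0.106 by limma). The highest value was that of Cox4i2 (1.19, SE 0.49), and the lowest were Cox7a1 (-0.68, SE 0.40), Ndufs1 (-0.14, SE 0.10) and Atp5g1 (-0.13, SE 0.22). Examples of the mitochondrial set are mt-Cytb at -0.13 (SE 0.21), mt-Co3 at 0.19 (SE 0.18) and mt-Nd4l at -0.42 (SE 0.58).

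The difference between the genotype effects at the 2 ages was tested as an interaction term over all 12 libraries. No member was called by limma, where 4.72% of all genes tested were called either way. The counts were 0 of 80 nuclear members, with 2 at an unadjusted p under 0.05, and 0 of 13 mitochondrially encoded members, with 6 at that level. DESeq2 called 1 nuclear and 3 mitochondrially encoded members, and edgeR 0. Without replicate 1 of P28 WT, 5 mitochondrially encoded members were called. All 13 had a negative interaction, with a median of -0.94, against -0.06 for nuclear members. The smallest adjusted p of the mitochondrial set was that of mt-Cytb, at -1.001 (SE 0.30, adjusted p = 0.0798 by limma), and among nuclear members that of Ndufa4l2, at 0.76 (SE 0.23, adjusted p = 0.0814 by limma). Cox8a had -0.39 (SE 0.17, adjusted p = 0.202 by limma).

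Most nuclear members varied little over the 4 groups. The ratio of the highest to the lowest group mean had a median of 1.25 over the 80 tested and was under 1.5 in 72 of them. It was 2 or more in 3, up to 2.92 for Cox4i2. For the mitochondrially encoded members the median was 1.88, from 1.68 for mt-Co1 to 2.43 for mt-Nd2. The highest group mean was that of P28 WT in all 13 mitochondrially encoded members, and in 47 of the 80 nuclear ones. It was that of P28 Smo* in 27 nuclear members and of P20 WT and P20 Smo* in 3 each.

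Several subunits of complexes IV and V exist as alternative genes, and their balance marks a tissue's type. For subunits 4, 6b and 7a of cytochrome oxidase the common form was the higher. On the scale of normalized reads per kb of exon, Cox4i1 was at 3444 over the 12 libraries and Cox4i2, a form linked to the response to low oxygen, at 247. Cox6b1 was at 2258 and Cox6b2, known mostly from testis, at 150.1. Cox7a2, the form of most tissues, was at 1092 and Cox7a1 at 73.6. The muscle form Cox6a2 had 0 to 3 reads in any library, Cox7b2, a form known from testis, 0 to 1, and Cox8c was listed at 0 in all 12.

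The muscle and brown fat form Cox8b had 0 to 3.12 normalized reads in 10 libraries, 10.04 in replicate 3 of P20 Smo* and 16.0 in replicate 3 of P28 Smo*. The fat marker Adipoq was highest in the same libraries, at 270 and 1018, and the muscle marker Ckm was at 83.1 and 141 there and at 99.3 in replicate 3 of P20 WT. Other muscle markers did not share this, with Acta1 at 21.0 in replicate 3 of P20 Smo* and 0 in replicate 3 of P28 Smo*. Mb was at 0 in both. The 10 fat markers summed to 8831 to 14884 in P20 WT, 10624 to 15640 in P20 Smo*, 13779 to 27853 in P28 WT and 13024 to 20467 in P28 Smo*, with Ucp1 at 0 to 6.24 in any library. Most of that sum was Lpl, with means of 10520, 11817, 20666 and 14062 in the same order of groups. Between P20 and P28 in WT, 1 of the 6 fat markers tested was called higher, Lpl, while their median log2 fold change was -1.28. The 12 muscle markers summed to 916 to 1940, 1038 to 1109, 621 to 946 and 875 to 2062 in the same order of groups. Of these 12, 6 had a mean below 10, and 1 of them was listed at 0 throughout. Their part in the value of Cox8b was not tested.

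Cox4i2 varied the most over groups. The P20 WT libraries had 81.4, 127 and 128 normalized reads, with 105, 109.8 and 125 in P20 Smo*, 208, 248 and 215 in P28 WT, and 366, 528 and 89.8 in P28 Smo*. The 3 P28 WT libraries lay above all 6 P20 libraries, whereas P28 Smo* held both the highest and, but for 1, the lowest values. Replicate 3 of P28 Smo*, with 89.8, also had the lowest sum of dermal papilla markers, 45370, against 178306 and 272751 in the other 2. The 10 endothelial and pericyte markers, cells in which Cox4i2 and Ndufa4l2 are also known, summed to 8096 to 12859 in P20 WT, 6878 to 9427 in P20 Smo*, 6706 to 10188 in P28 WT and 7481 to 12578 in P28 Smo*. That sum was 12578 in replicate 3 of P28 Smo*, and 3 of the 10 (Cdh5, Vwf and Pecam1) were called higher and 1 lower in P28 Smo* than in P28 WT by limma. Their part in either gene's values was not tested. With all libraries, the log2 fold change of Cox4i2 at P28 (Smo* over WT) was 0.21 (SE 0.57). Without replicate 3 of P28 Smo* it was 0.97 (adjusted p = 0.0242 by limma). Without that library Cox4i2 was also called higher at P28 than at P20 in both genotypes.

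Ndufa4l2 was more abundant than Ndufa4 in every group. Per kb of exon the group means were 3234 in P20 WT, 2434 in P20 Smo*, 2694 in P28 WT and 3472 in P28 Smo*, against 569.9, 604, 871 and 714 for Ndufa4. The direction between genotypes differed in sign, -0.40 at P20 and 0.35 at P28, neither of them called.

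The c subunit of ATP synthase, which forms the rotor ring, is made from 3 genes with different leader peptides. Per kb of exon, Atp5g3 was at 1116, Atp5g2 at 1062 and Atp5g1 at 215 over the 12 libraries, and just Atp5g2 was called in any comparison by limma. Over the last 228 coding bases, 194 were the same in Atp5g1 and Atp5g2 (85.1%), 182 in Atp5g1 and Atp5g3 (79.8%) and 179 in Atp5g2 and Atp5g3 (78.5%), with no identical run longer than 21 bases. So reads of the 3 genes can be told apart over most of that stretch. The last 90 coding bases are shown, with capitals where a gene differs from Atp5g2 (GENCODE, GRCm38, chromosomes 15, 11 and 2).
Atp5g2: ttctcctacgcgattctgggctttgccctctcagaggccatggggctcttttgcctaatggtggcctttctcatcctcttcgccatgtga
Atp5g1: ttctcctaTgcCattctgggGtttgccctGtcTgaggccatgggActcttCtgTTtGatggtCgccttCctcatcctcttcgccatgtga
Atp5g3: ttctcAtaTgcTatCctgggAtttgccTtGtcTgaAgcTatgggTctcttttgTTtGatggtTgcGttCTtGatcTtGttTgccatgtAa
Atp5g1 differs at 12 of these 90 positions and Atp5g3 at 23.

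**Figure D5:**
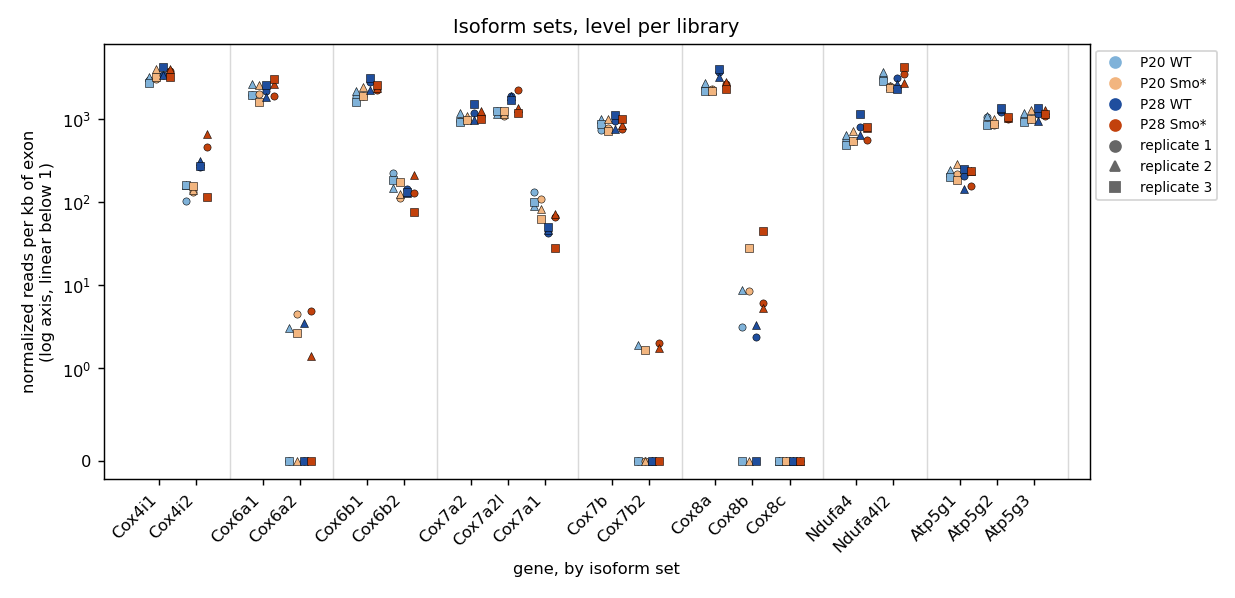
Normalized reads per kb of exon (log axis, linear below 1) of the members of 8 isoform sets in every library; colours mark the groups and symbols the replicates. The tissue-restricted forms Cox6a2, Cox7b2 and Cox8c lie near or at 0, Cox7a1 near 73.6 on average and lower at P28, and Cox4i2 is spread widely in P28 Smo*.

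The counts for genes around the pathway are read against the shares of all genes tested, 13.5% called higher and 11.9% lower with age in WT, and 4.05% higher and 4.85% lower in Smo* at P28. Of 22 regulators of mitochondrial biogenesis and mitochondrial DNA tested, 0 were called at P20 and 1 at P28, lower in Smo*. It was Ppargc1a, a coactivator known to raise transcription of respiratory genes, with 184 ± 53.5 normalized reads in P28 WT and 70.9 ± 26.8 in P28 Smo* (SD, n = 3), a log2 fold change of -1.39 (SE 0.34, adjusted p = 0.0437 by limma). It also rose between P20 (57.5 ± 16.8) and P28 in WT (1.67, SE 0.35, adjusted p = 0.00477 by limma), a comparison that shares the P28 WT libraries. Its interaction was -1.97 (SE 0.50, adjusted p = 0.0437 by limma). In WT, 2 of the 22 rose and 5 fell with age, where 11.9% of all genes fell. Pprc1, a relative of Ppargc1a, fell by 1.19 (SE 0.19, adjusted p = 0.000988 by limma), and Mterf3, a mitochondrial regulator, fell by 0.62 in WT (SE 0.16, adjusted p = 0.0158 by limma) and by 0.72 in Smo* (SE 0.16, adjusted p = 0.0388 by limma).

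Of 17 electron carrier and coenzyme Q genes, 1 fell in Smo* at P28, Coq8a, which is needed for coenzyme Q synthesis (-1.17, adjusted p = 0.0222 by limma), and 1 fell with age in WT, Coq8b (-0.54, adjusted p = 0.0382 by limma). Of 45 assembly factors, 0 were called between genotypes at either age, and 5 rose and 2 fell with age in WT, not above the 13.5% and 11.9% of all genes, among them Coa5 (0.52) and Sdhaf4 (0.67) upwards and Coa7 (-0.97) downwards. Of 18 genes of the citric acid cycle and pyruvate dehydrogenase, 1 was higher in Smo* at P28, Idh2, the NADP-dependent isocitrate dehydrogenase of mitochondria (0.71, SE 0.12, adjusted p = 0.0112 by limma). Idh2 also fell with age in WT (-0.42), while Pdha1 rose (0.38). Of 77 mitochondrial ribosomal proteins 0 rose and 2 fell with age in WT, Mrps6 (-1.40) and Mrps18b (-0.51), below the shares of all genes, and 0 were called in the other comparisons. None of the 19 import translocases and none of the carriers, porins and uncoupling proteins was called in any comparison by limma.

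Of 20 glycolysis and hypoxia genes, 1 was higher in Smo* at P28, the glucose transporter Slc2a1 (1.03, SE 0.16, adjusted p = 0.00781 by limma), and in WT 2 rose with age, Gpi1 (0.62) and Pfkm (0.63), and 1 fell, Egln3 (-1.51), an oxygen-dependent hydroxylase. The list medians were between -0.30 and 0.18 in each of these lists and comparisons.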

How the data were processed

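RNA from sorted dermal papilla cells (100 ng, depleted of ribosomal RNA, directional libraries, per the labels' protocols) had been trimmed with Trimmomatic, aligned with TopHat2 version 2 to mm10, counted with HTSeq and compared with DESeq2, per the submitters' processing notes, which name GRCm38.p4. How strand and reads on shared sequence were treated in counting is not given there. The deposited signal values are normalized reads per gene, made by the authors from 12 libraries together. In 100% of nonzero values, division by the step of a library gave whole reads within 0.01 reads. For the most abundant genes the limit was wider, in proportion to the count. The authors' means matched the mean of all 12 within 0.000416667. The deposited log2 fold changes, their test score and the p-values are the authors' own genotype comparisons at each age, and their sign was turned to Smo* over WT here.

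Values were tested with limma 3.58.1 (R 4.3.3) with a variance trend on log2(value + 1), leaving out genes whose mean was below 10, and p-values were adjusted by Benjamini-Hochberg over all genes tested, at a threshold of 0.05. Genotype was tested within the 6 libraries of an age, and age and interaction within all 12. The fit was tested on simulated counts with a single spread for all genes and changes larger than those of the nuclear members that rose. That test does not speak for smaller changes or for a group that splits. With 3 against 3 libraries an exact permutation test cannot go below p = 0.1. Totals of 36323058 to 48926831 reads limit mainly genes of few reads. Gene symbols matched 99.0% of the identifiers. Alternatives were edgeR 4.0.16 and DESeq2 1.42.0 on the recovered reads, other scalings, filters, pseudocounts and variance models, and each library left out.

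Named were all mitochondrially encoded members, nuclear members called (1 is not reported here), the 3 largest changes in each direction per comparison, the highest and lowest member per length of each complex, isoform sets, up to 3 called genes per pathway list, and Smo, Gli1 and Ptch1 as a check of labels. Marker genes and Cox8b's companions Adipoq and Ckm were named after their values were seen. Members and lists were chosen with earlier results of these data known.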

Additional observations from a re-analysis of the deposited data

How the results depend on the processing

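Over 26 alternative settings, 747 values stayed the same, 91 were weaker and 45 moved. For a single called gene, same means that direction and call were kept, and weaker that just the call was lost. None of these genes reversed direction. A count stayed the same if it was equal or within a set factor, and a median or share if it shifted by less than the SD within groups. Otherwise it moved, and direction was not judged for these. For mitochondrially encoded members at P28 (1 called of 13) the count was 0 with no filter, with no variance trend and with the length trend removed (chosen after seeing the data), 2 with robust empirical Bayes and with edgeR, 6 with the other libraries in the fit, and 9 with DESeq2 and in the authors' deposited table. For nuclear members at P28 (0) it was 2 with DESeq2 and 1 with the other libraries in the fit and in the authors' deposited table. Nuclear calls with age in WT (10) were 6 with no variance trend. DESeq2 gave 3 nuclear calls with age in Smo*, and for the interaction 1 nuclear and 3 mitochondrially encoded calls. In fits without 1 library, mitochondrially encoded calls ran from 0 to 7 at P28, from 1 to 11 with age in WT and from 0 to 5 for the interaction. Nuclear calls ran from 2 to 14 with age in WT and from 0 to 1 at P28, with age in Smo* and for the interaction. Without replicate 1 of P28 WT the mitochondrial medians were -1.21 at P28, 1.17 with age in WT and -1.34 for the interaction. The cause of these differences was not tested. With the 10 most abundant genes out of the denominator, which raises every share, mitochondrially encoded members took 0.874%, 0.949%, 1.54% and 0.879% of reads in P20 WT, P20 Smo*, P28 WT and P28 Smo*, and nuclear members 0.437%, 0.461%, 0.490% (0.4902) and 0.489%. No paired analysis was possible because the labels give no shared replicate numbers. Depth limits mt-Atp8 most among mitochondrially encoded members, at 48 to 688 reads.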
